A study of Mus musculus with 34 samples.

Results

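The acrosome genes Acr, Acrv1, Acrbp, Spaca1, Spaca3, Zpbp, Zpbp2, Izumo1 and Spesp1 were followed through the stages of the seminiferous epithelium. These 9 genes were taken by name out of 33195 gene names measured, of which 16624 carry a mouse symbol. Each was read by its probe with the highest mean signal, found through the transcript accession in the array design, and all 9 were measured on every array. A value is the log2 signal minus the 75th percentile of log2 signals on the same array, so 0 is the level of that percentile and levels of different probes are not comparable. The comparison at the centre is stages IX-XII against stages VII-VIII.

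RNA came from C57BL6/j mice of 6 to 8 weeks and was measured on 34 Agilent arrays of 1 colour, in 17 groups of 2. The 24 tubule arrays hold 3 arms of 4 stage groups each, from stages I-III through IV-VI and VII-VIII to IX-XII: tubules from testes injected with a lentivirus for dnRARa, a dominant negative retinoic acid receptor alpha, tubules from testes injected with a lentivirus for the fluorescent protein Venus, and untreated tubules. Injection preceded dissection by 5 days in both virus arms. The third stage group is written VII-VIII in the source names and VI-VIII in the sample titles. The other 10 arrays hold Sertoli cells cultured with retinoic acid (RA; 1 mM and 24 hours per the labels), Sertoli cells cultured with vehicle, Sertoli cells sorted by FACS from Nanos3KO testes, Sertoli cells sorted from wild-type (WT) testes, and whole testes. Sertoli cells are the somatic nurse cells of the tubule; the marker used to sort them, the promoter that drives dnRARa and the cells that took up the virus are not given in the sources used here. The labels call the 2 samples of a group biological duplicates and say nothing more of their origin. The p-values rest on the spread between such duplicates, pooled per gene over all groups of a fit, and 2 arrays a group limit the precision. A wide pair thus also weighs on comparisons that do not hold it. For Acrv1, Spaca1, Spaca3 and Izumo1 the widest tubule pair was untreated IX-XII (SD 0.85 to 1.40).

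The acrosome is a secretory vesicle that forms from Golgi material in the round spermatid and spreads as a cap over its nucleus before the spermatid elongates. Its matrix holds proteases and structural proteins, its membranes carry proteins that hold it to the nucleus, and its equatorial segment carries proteins that act when sperm and egg fuse. In mice, tubules of stages I to VIII hold round spermatids together with older elongated spermatids, which are shed into the lumen at stage VIII; tubules of stages IX-XII hold elongating spermatids. Because these are bulk samples, fewer cells of a type and less RNA per cell cannot be told apart in any result given here.

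RefSeq promoter windows of 300 bases around the annotated transcript start (GRCm38.p6) were found for 8 of the 9 genes, all but Acr. The windows of Izumo1, Acrv1, Spaca1 and Spaca3 are shown because these genes fell steeply after stages VII-VIII, and those of Acrbp, Zpbp2 and Spesp1 because these rose. All are written 5′ to 3′ on the strand of the gene, with matches to the searched motifs on either strand in capitals.
Izumo1, chr7:45621561-45621860, plus strand: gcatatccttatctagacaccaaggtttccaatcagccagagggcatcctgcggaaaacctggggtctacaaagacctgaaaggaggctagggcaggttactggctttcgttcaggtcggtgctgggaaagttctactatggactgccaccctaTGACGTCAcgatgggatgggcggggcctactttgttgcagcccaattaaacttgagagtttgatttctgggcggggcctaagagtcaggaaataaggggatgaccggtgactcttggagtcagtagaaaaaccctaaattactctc
Acrv1, chr9:36692970-36693269, plus strand: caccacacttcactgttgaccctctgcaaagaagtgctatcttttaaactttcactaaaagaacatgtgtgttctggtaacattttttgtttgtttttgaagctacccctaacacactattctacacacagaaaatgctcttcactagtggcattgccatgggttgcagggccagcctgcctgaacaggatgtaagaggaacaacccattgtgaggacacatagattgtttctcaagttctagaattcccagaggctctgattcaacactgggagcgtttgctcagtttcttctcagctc
Spaca1, chr4:34050016-34050315, minus strand: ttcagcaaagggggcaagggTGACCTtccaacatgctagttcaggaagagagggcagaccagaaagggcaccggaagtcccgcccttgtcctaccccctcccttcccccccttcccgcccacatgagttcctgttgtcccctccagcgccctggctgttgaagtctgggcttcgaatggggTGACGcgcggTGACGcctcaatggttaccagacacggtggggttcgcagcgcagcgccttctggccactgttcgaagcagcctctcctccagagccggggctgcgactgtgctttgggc
Spaca3, chr11:80858113-80858412, plus strand: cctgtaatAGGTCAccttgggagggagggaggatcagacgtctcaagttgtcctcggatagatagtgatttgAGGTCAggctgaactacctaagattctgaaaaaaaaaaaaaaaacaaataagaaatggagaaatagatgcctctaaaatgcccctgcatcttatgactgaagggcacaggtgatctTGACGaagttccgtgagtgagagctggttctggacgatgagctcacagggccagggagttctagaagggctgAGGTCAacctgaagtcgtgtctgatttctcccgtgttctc
Acrbp, chr6:125049677-125049976, plus strand: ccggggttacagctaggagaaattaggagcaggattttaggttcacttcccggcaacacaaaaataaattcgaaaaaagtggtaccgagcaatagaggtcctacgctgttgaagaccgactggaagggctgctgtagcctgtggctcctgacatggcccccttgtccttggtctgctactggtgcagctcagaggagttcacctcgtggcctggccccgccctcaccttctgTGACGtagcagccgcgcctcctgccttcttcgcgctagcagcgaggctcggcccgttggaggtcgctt
Zpbp2, chr11:98550847-98551146, plus strand: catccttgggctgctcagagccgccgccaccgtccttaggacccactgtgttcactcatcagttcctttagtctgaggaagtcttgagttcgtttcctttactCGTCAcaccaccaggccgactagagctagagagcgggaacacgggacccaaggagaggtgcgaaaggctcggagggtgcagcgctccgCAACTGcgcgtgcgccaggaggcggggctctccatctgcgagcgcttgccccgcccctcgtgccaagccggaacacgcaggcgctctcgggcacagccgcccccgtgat
Spesp1, chr9:62282130-62282429, minus strand: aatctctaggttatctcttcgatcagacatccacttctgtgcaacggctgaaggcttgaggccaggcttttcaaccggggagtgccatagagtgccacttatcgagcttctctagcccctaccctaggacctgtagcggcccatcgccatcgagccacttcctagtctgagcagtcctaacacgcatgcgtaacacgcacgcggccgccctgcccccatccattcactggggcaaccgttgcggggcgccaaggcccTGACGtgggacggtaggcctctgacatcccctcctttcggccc

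The motifs searched on both strands were TGACGTCA, the full cAMP response element, TGACG, its core, which the full element holds on both strands, CAGTTG, a MYB core, and AGGTCA, a nuclear receptor core motif. The full element was in the window of Izumo1, at positions -96 to -89 from the transcript start, and in windows of 2.0% of the 27025 mouse genes in the table. The core TGACG was in windows of 6 of the 8 genes (Acrbp, Spaca1, Spaca3, Zpbp2, Izumo1 and Spesp1) and of 23.0% of all genes. Among the genes that rose it lay at -18 to -14 in Acrbp, at -147 to -143 in Zpbp2 and at 8 to 12 in Spesp1. The MYB core was in the window of Zpbp2 and of 15.4% of all genes, and AGGTCA in the windows of Spaca1 and Spaca3 and of 18.1% of all genes. Spaca1 and Spaca3 have 2 annotated start sites each; the first is printed, and the second window held the same motifs. The windows of Acrv1 and Zpbp held none of the 4 motifs. Steeply falling and rising genes both had windows with TGACG. A match is a description of letters and not of a bound site.

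Between 54.9% and 74.4% of spots were well above background on an array, and replicate arrays of the tubule groups correlated across probes at r from 0.9814 to 0.9955. Replicate 2 of untreated IX-XII tubules stood apart from its partner, with a 75th percentile of 10.18 against 11.05 (log2), and 4 of the acrosome genes lay more than 1 log2 unit lower on it. Differences between untreated IX-XII and VII-VIII tubules are therefore given with and without it. Each dnRARa and each Venus replicate had a slide of its own that held all 4 stage groups, so stage differences in these arms could be read within a slide. Untreated VII-VIII and IX-XII tubules shared 1 slide, whereas untreated I-III and IV-VI tubules lay on slides of their own, so for comparisons with these the slide and the stage cannot be told apart.

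After stages VII-VIII the 9 genes split into 3 courses. Izumo1, Acrv1, Spaca1 and Spaca3 fell in all 3 arms, with differences of -2.996 to -4.56 on the log2 scale, or 7.98-fold to 23.7-fold. Acr fell in all 3 arms by far less, 1.34-fold to 1.64-fold, and Zpbp passed as lower in Venus tubules and did not pass in the other 2 arms. Acrbp, Zpbp2 and Spesp1 rose in all 3 arms, by 1.39-fold to 2.38-fold. In dnRARa tubules 8 of 9 genes passed the test, 5 lower and 3 higher, where 37% of all genes tested passed, 17.1% lower and 19.9% higher. In Venus tubules all 9 passed, 6 lower and 3 higher, beside 34.6% of all genes, 16.6% lower and 18% higher. In untreated tubules 8 passed, 5 lower and 3 higher, beside 46.6% of all genes, 23% lower and 23.6% higher. Each test was a two-sided limma fit on all 24 tubule arrays, with p-values adjusted by the Benjamini-Hochberg method over all genes tested in that comparison and a threshold of 0.05. The median difference of the 9 genes in untreated tubules was -0.49, beside 0.006 over all genes tested. Both IX-XII arrays lay below both VII-VIII arrays for 6 of the 9 genes in dnRARa, 6 in Venus and 5 in untreated tubules. The share over all genes tested was 30.6%, 35% and 34.4% in these arms. Both lay above for 3 genes in each arm, beside 38.9%, 42% and 34.1% of all genes tested.

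**Figure D1:**
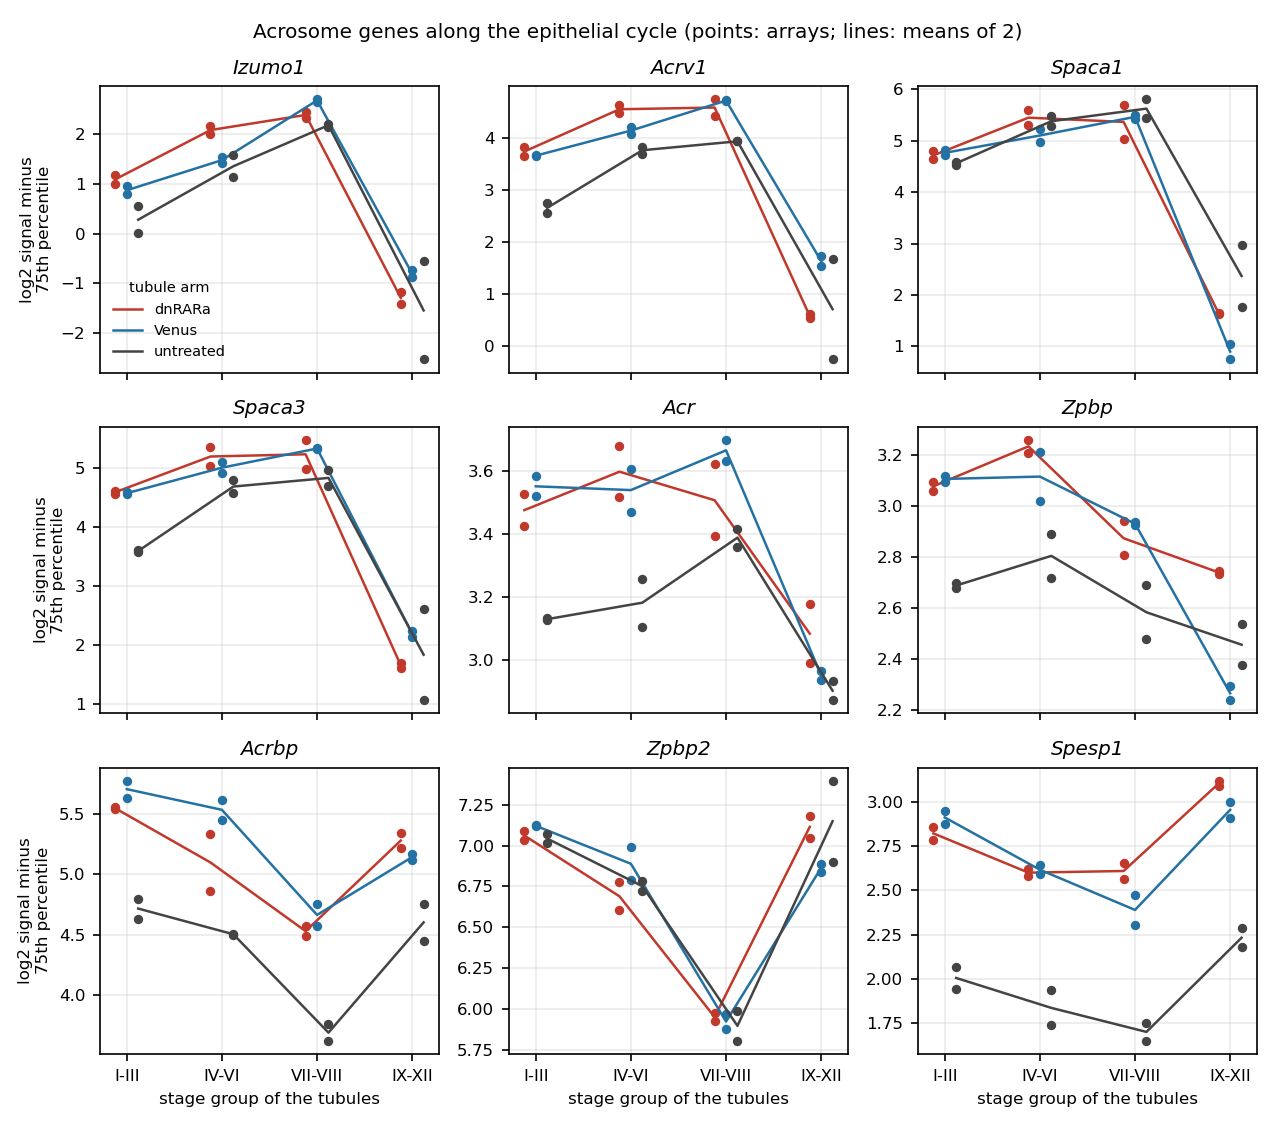
Level of each of the 9 acrosome genes (log2 signal minus the array's 75th percentile, y axis, scaled per gene) in tubules of the 4 stage groups (x axis), with 1 point per array, lines through the means of 2 arrays, and colours for the dnRARa, Venus and untreated arms. Izumo1, Acrv1, Spaca1 and Spaca3 drop at IX-XII, Acrbp and Zpbp2 dip at VII-VIII, and the 2 untreated IX-XII points of Izumo1 lie at -0.56 and -2.53.

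Acr encodes acrosin, the serine protease of the acrosomal matrix. It read 3.18 and 2.99 in dnRARa tubules IX-XII, against 3.62 and 3.39 in dnRARa tubules VII-VIII. In Venus tubules Acr read 2.94 and 2.97 at IX-XII, against 3.63 and 3.70 at VII-VIII. In untreated tubules Acr read 2.93 and 2.87 at IX-XII, against 3.42 and 3.36 at VII-VIII. Both IX-XII arrays lay below both VII-VIII arrays in each arm, although every value stayed within 1 log2 unit. The differences were -0.42 in dnRARa tubules (SE 0.12, adjusted p = 0.0121), -0.71 in Venus tubules (SE 0.12, adjusted p = 0.000341) and -0.49 in untreated tubules (SE 0.12, adjusted p = 0.00424), the last being -0.46 (adjusted p = 0.02) without replicate 2 of IX-XII. With median scaling of the arrays the fall did not pass in dnRARa tubules (-0.39, adjusted p = 0.0534) or untreated tubules (-0.37, adjusted p = 0.0518), and with normexp background correction it did not pass in untreated tubules (-0.33, adjusted p = 0.0773). In dnRARa tubules it was also lost without replicate 1 of VII-VIII (-0.31) and without replicate 2 of IX-XII (-0.33), each with an adjusted p of 0.121.

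Acrv1, known as SP-10, encodes a protein of the acrosomal matrix that is made in round spermatids. It read 0.53 and 0.61 in dnRARa tubules IX-XII, against 4.74 and 4.41 in dnRARa tubules VII-VIII. In Venus tubules Acrv1 read 1.53 and 1.72 at IX-XII, against 4.72 and 4.70 at VII-VIII. In untreated tubules Acrv1 read 1.67 and -0.26 at IX-XII, against 3.93 on both arrays at VII-VIII. Every IX-XII array was at least 2 log2 units below every VII-VIII array of its arm, and the untreated IX-XII pair was the widest apart. The differences were -4.00 in dnRARa tubules (SE 0.39, adjusted p = 2.9e-06), -3.08 in Venus tubules (adjusted p = 3.28e-05) and -3.22 in untreated tubules (adjusted p = 1.66e-05). Without replicate 2 of untreated IX-XII the last difference was -2.26 (adjusted p = 1.33e-06), and without replicate 1 it was -4.19. Levels before the fall were 3.65 to 3.82 at I-III and 4.47 to 4.62 at IV-VI in dnRARa tubules, 3.64 to 3.66 and 4.07 to 4.20 in Venus tubules, and 2.55 to 2.75 and 3.69 to 3.83 in untreated tubules.

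Spaca3 encodes a lysozyme-like protein of the acrosome. It read 1.62 and 1.70 in dnRARa tubules IX-XII, against 5.48 and 4.99 in dnRARa tubules VII-VIII. In Venus tubules Spaca3 read 2.15 and 2.25 at IX-XII, against 5.34 on both arrays at VII-VIII. In untreated tubules Spaca3 read 2.61 and 1.07 at IX-XII, against 4.98 and 4.70 at VII-VIII. No array of IX-XII reached any array of VII-VIII. The differences were -3.58 in dnRARa tubules (SE 0.33, adjusted p = 2.07e-06), -3.14 in Venus tubules (adjusted p = 7.15e-06) and -2.996 in untreated tubules (adjusted p = 8.46e-06), the last being -2.22 (adjusted p = 5.1e-06) without replicate 2 of IX-XII. Over the 12 tubule group means the course of Spaca3 ran with that of Acrv1 at r = 0.994, a description over groups that share slides and arms.

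Acrbp encodes the protein that binds proacrosin and holds it in the matrix until release. It read 5.21 and 5.34 in dnRARa tubules IX-XII, against 4.49 and 4.57 in dnRARa tubules VII-VIII. In Venus tubules Acrbp read 5.17 and 5.12 at IX-XII, against 4.57 and 4.75 at VII-VIII. In untreated tubules Acrbp read 4.45 and 4.75 at IX-XII, against 3.76 and 3.62 at VII-VIII. The IX-XII arrays were the higher ones in every arm, without overlap. The differences were 0.75 in dnRARa tubules (SE 0.16, adjusted p = 0.00164), 0.48 in Venus tubules (adjusted p = 0.0276) and 0.91 in untreated tubules (adjusted p = 0.000295), the last being 0.76 (adjusted p = 0.00411) without replicate 2 of IX-XII. In Venus tubules the rise did not pass when any of the 4 arrays was left out (differences of 0.39 to 0.57), nor with normexp background correction (0.47, adjusted p = 0.0719). A second probe of Acrbp gave 0.71 in dnRARa tubules (adjusted p = 0.00973), 0.25 in Venus tubules (adjusted p = 0.365) and 0.49 in untreated tubules (adjusted p = 0.0486).

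The rise of Acrbp followed a dip at stages VII-VIII. From IV-VI to VII-VIII it fell by 0.57 in dnRARa tubules (SE 0.16, adjusted p = 0.0136), by 0.87 in Venus tubules (adjusted p = 0.000744) and by 0.81 in untreated tubules (adjusted p = 0.000986). In dnRARa tubules the dip did not pass without replicate 1 of IV-VI (adjusted p = 0.181) or replicate 1 of VII-VIII (adjusted p = 0.072). By group means stages VII-VIII were the low point of Acrbp in each arm, on both probes. Zpbp2 showed a like dip, falling from IV-VI to VII-VIII by 0.74 in dnRARa tubules (SE 0.15, adjusted p = 0.00187), by 0.96 in Venus tubules (adjusted p = 0.000226) and by 0.85 in untreated tubules (adjusted p = 0.000482). Over the 12 group means Acrbp and Zpbp2 correlated at r = 0.674.

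Spaca1 encodes an acrosomal membrane protein that mice need to shape the acrosome. It read 1.65 and 1.63 in dnRARa tubules IX-XII, against 5.69 and 5.04 in dnRARa tubules VII-VIII. In Venus tubules Spaca1 read 0.75 and 1.05 at IX-XII, against 5.43 and 5.498 at VII-VIII. In untreated tubules Spaca1 read 2.97 and 1.77 at IX-XII, against 5.81 and 5.44 at VII-VIII. The lowest arrays were those of Venus IX-XII and the VII-VIII arrays of the 3 arms overlapped. The differences were -3.73 in dnRARa tubules (SE 0.30, adjusted p = 6.46e-07), -4.56 in Venus tubules (adjusted p = 1.75e-07) and -3.25 in untreated tubules (adjusted p = 1.81e-06), the last being -2.65 (adjusted p = 6.93e-06) without replicate 2 of IX-XII. A second probe of Spaca1 fell by 3.67 in dnRARa tubules, by 4.47 in Venus tubules and by 2.72 in untreated tubules (adjusted p = 1.35e-06, 3.15e-07 and 1.55e-05).

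Zpbp and Zpbp2 encode the zona pellucida binding proteins, matrix proteins that in mice bear on the shape of the acrosome and sperm head. Zpbp read 2.75 and 2.73 in dnRARa tubules IX-XII, against 2.94 and 2.81 in dnRARa tubules VII-VIII. In Venus tubules Zpbp read 2.24 and 2.29 at IX-XII, against 2.92 and 2.94 at VII-VIII. In untreated tubules Zpbp read 2.38 and 2.54 at IX-XII, against 2.69 and 2.48 at VII-VIII, and these 2 pairs overlapped. The difference passed in Venus tubules (-0.66, SE 0.12, adjusted p = 0.000501) and not in dnRARa tubules (-0.13, 95% interval -0.38 to 0.12, adjusted p = 0.418) or untreated tubules (-0.13, 95% interval -0.38 to 0.12, adjusted p = 0.399; -0.21, adjusted p = 0.232, without replicate 2 of IX-XII). The test of whether the Venus and dnRARa differences differ did not pass (0.53, SE 0.17, adjusted p = 0.433), nor did that for Venus and untreated tubules (-0.54, SE 0.17, adjusted p = 0.189).

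Zpbp2 went the other way. It read 7.05 and 7.18 in dnRARa tubules IX-XII, against 5.98 and 5.92 in dnRARa tubules VII-VIII. In Venus tubules Zpbp2 read 6.89 and 6.84 at IX-XII, against 5.88 and 5.97 at VII-VIII. In untreated tubules Zpbp2 read 6.90 and 7.40 at IX-XII, against 5.99 and 5.80 at VII-VIII. All IX-XII arrays lay above all VII-VIII arrays, and the VII-VIII arrays of the 3 arms overlapped. The differences were 1.16 in dnRARa tubules (SE 0.15, adjusted p = 3.05e-05), 0.94 in Venus tubules (adjusted p = 0.000213) and 1.25 in untreated tubules (adjusted p = 1.39e-05), the last being 1.00 (adjusted p = 9.51e-05) without replicate 2 of IX-XII. By IX-XII Zpbp2 was back near its level at I-III, where it read 7.03 to 7.09 in dnRARa tubules, 7.12 on both Venus arrays and 7.01 to 7.07 in untreated tubules.

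Izumo1 encodes the sperm membrane protein that binds the egg receptor Juno and that mice need for fusion. It read -1.42 and -1.17 in dnRARa tubules IX-XII, against 2.33 and 2.45 in dnRARa tubules VII-VIII. In Venus tubules Izumo1 read -0.88 and -0.74 at IX-XII, against 2.71 and 2.65 at VII-VIII. In untreated tubules Izumo1 read -0.56 and -2.53 at IX-XII, against 2.21 and 2.15 at VII-VIII. Every VII-VIII array was above 2 and every IX-XII array below 0. The differences were -3.68 in dnRARa tubules (SE 0.42, adjusted p = 1.07e-05), -3.49 in Venus tubules (adjusted p = 1.95e-05) and -3.73 in untreated tubules (adjusted p = 8.41e-06), the last being -2.74 (adjusted p = 2.84e-06) without replicate 2 of IX-XII and -4.71 without replicate 1. Within the single slides the Izumo1 differences were -3.74 and -3.62 in dnRARa tubules and -3.59 and -3.39 in Venus tubules. Izumo1 was also the gene that rose into stages VII-VIII in Venus tubules, by 1.202 over IV-VI (SE 0.42, adjusted p = 0.0402). That rise did not pass with the slide as a block (adjusted p = 0.0553) or when any of the 4 arrays was left out (adjusted p = 0.112 to 0.153), and the differences in dnRARa tubules (0.30, adjusted p = 0.654) and untreated tubules (0.83, adjusted p = 0.135) did not pass either. The pooled SE of Izumo1 holds the wide untreated IX-XII pair (SD 1.40), which is in none of these groups.

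Spesp1 encodes a protein of the equatorial segment, the region of the sperm head that meets the egg membrane. It read 3.09 and 3.12 in dnRARa tubules IX-XII, against 2.65 and 2.56 in dnRARa tubules VII-VIII. In Venus tubules Spesp1 read 3.0003 and 2.91 at IX-XII, against 2.47 and 2.30 at VII-VIII. In untreated tubules Spesp1 read 2.18 and 2.28 at IX-XII, against 1.75 and 1.65 at VII-VIII. The IX-XII pair was the higher pair in each arm. The differences were 0.49 in dnRARa tubules (SE 0.11, adjusted p = 0.00315), 0.57 in Venus tubules (adjusted p = 0.00132) and 0.53 in untreated tubules (adjusted p = 0.00152), the last being 0.48 (adjusted p = 0.00993) without replicate 2 of IX-XII. So the pair of genes tied to fusion, Izumo1 and Spesp1, changed in opposite directions in all 3 arms.

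**Figure D2:**
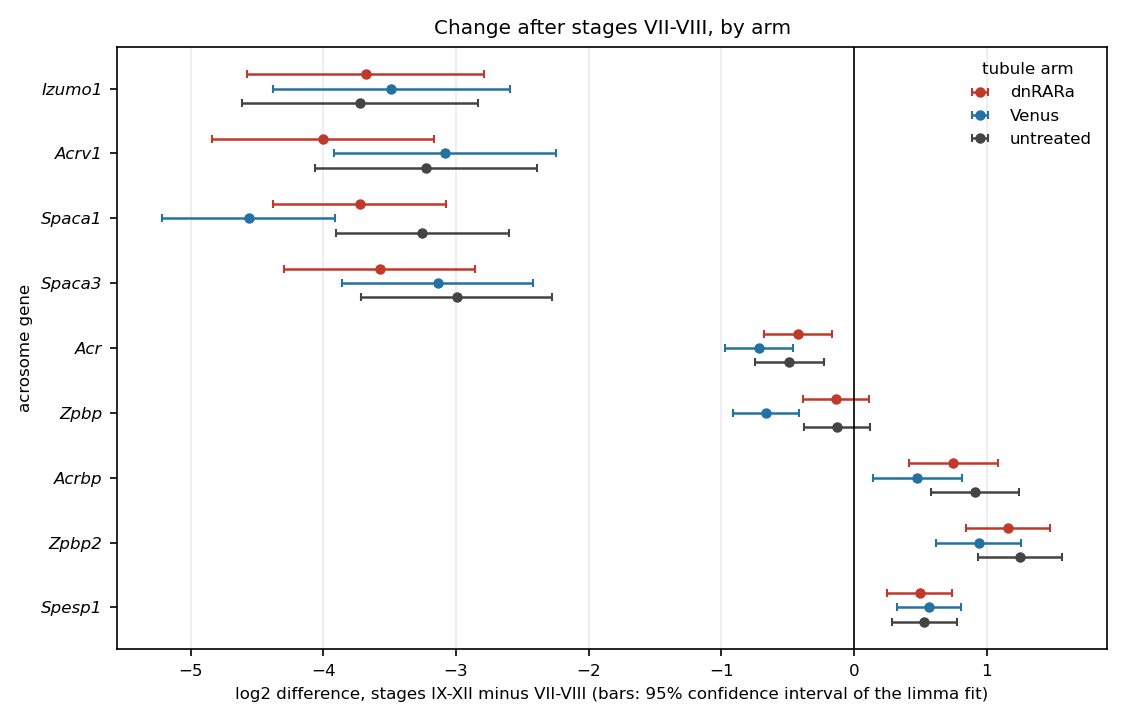
Difference between stages IX-XII and VII-VIII (x axis, log2, IX-XII minus VII-VIII) for each acrosome gene (y axis) in the dnRARa, Venus and untreated arms, with bars for the 95% confidence interval of the limma fit. The intervals of Izumo1, Acrv1, Spaca1 and Spaca3 lie below -2, those of Acrbp, Zpbp2 and Spesp1 above 0, and those of Zpbp cross 0 in dnRARa and untreated tubules.

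Whether the change after stages VII-VIII differed between arms was tested directly by limma. For dnRARa against Venus none of the 9 genes passed, beside 0.275% of all genes; 1 of the 9, Zpbp, and 1332 of 23640 genes were under 0.05 without adjustment. The largest of these differences of differences were -0.92 for Acrv1 (SE 0.55) and 0.84 for Spaca1 (SE 0.43), with intervals of -2.11 to 0.26 and -0.08 to 1.76. Both SEs are pooled over all 24 tubule arrays, the untreated IX-XII pair included (SD 1.37 for Acrv1 and 0.85 for Spaca1). In the dnRARa and Venus groups compared, the SDs were 0.01 to 0.23 for Acrv1 and 0.02 to 0.46 for Spaca1. For Venus against untreated tubules none passed either, beside 1.07% of all genes, and 2 of the 9, Spaca1 (-1.31, SE 0.43) and Zpbp, and 2286 of 23116 genes were under 0.05 without adjustment. That second test turned on which untreated IX-XII array was used. Without replicate 2 of untreated IX-XII the difference of Spaca1 was -1.91 and passed (adjusted p = 0.00723), while those of Acrv1 (-0.82, adjusted p = 0.0642) and Izumo1 (-0.75, adjusted p = 0.276) did not. Without replicate 1 the sign of these 2 was the opposite and both passed (Acrv1 1.11, adjusted p = 0.0116; Izumo1 1.23, adjusted p = 0.0342), and Spaca1 did not (-0.71, adjusted p = 0.238).

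Earlier in the cycle fewer of the 9 genes passed the test. Between I-III and IV-VI, Spaca3 in untreated tubules passed (1.09 higher at IV-VI, SE 0.33, adjusted p = 0.0363), the 1 call among 9 genes beside 18% of all genes, 9.78% higher and 8.2% lower, and it was lost when any of the 4 arrays was left out. In dnRARa tubules none passed by limma, beside 8% of all genes (3.81% higher, 4.19% lower), with 4 of the 9 and 4533 of 21390 genes under 0.05 without adjustment. In Venus tubules none passed by limma, nor did any of all genes tested (0%), with 1 of the 9 and 1693 of all genes under 0.05 without adjustment. Izumo1, Acrv1, Spaca1 and Spaca3 had higher means at IV-VI in all 3 arms, by 0.34 to 1.11, and of these differences the test passed that of Spaca3 in untreated tubules.

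Between IV-VI and VII-VIII, 3 genes passed in dnRARa tubules, all lower (Acrbp, Zpbp2 and Zpbp), beside 29.1% of all genes, 15.7% higher and 13.4% lower. In Venus tubules 3 passed, Acrbp and Zpbp2 lower and Izumo1 higher, beside 31.1% of all genes, 14.8% higher and 16.3% lower. In untreated tubules 2 passed, Acrbp and Zpbp2, both lower, beside 38.8% of all genes, 20.2% higher and 18.5% lower. Zpbp in dnRARa tubules was at 2.94 and 2.81 at VII-VIII, against 3.26 and 3.21 at IV-VI, a difference of -0.36 (SE 0.12, adjusted p = 0.0322) that was lost when 3 of the 4 arrays were left out one at a time.

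At the return of the cycle from IX-XII to I-III the steeply falling genes were high again. This comparison shares its IX-XII arrays with the one above. In dnRARa tubules 6 genes were higher at I-III (Izumo1, Acrv1, Spaca1, Spaca3, Acr and Zpbp) and none lower, beside 31.1% of all genes, 14.5% higher. Of these, Acr and Zpbp did not pass with median scaling (0.33, adjusted p = 0.105, and 0.28, adjusted p = 0.175), and leaving out any 1 of the 4 arrays left 4 to 5 of the 6. In Venus tubules 7 were higher, these 6 and Acrbp, beside 36.2% of all genes, 18% higher. Acrbp did not pass there on its second probe (0.47, adjusted p = 0.0706), without replicate 2 of I-III (adjusted p = 0.0901) or without replicate 2 of IX-XII (adjusted p = 0.0658). In untreated tubules 4 were higher, Izumo1, Acrv1, Spaca1 and Spaca3, beside 30.5% of all genes, 13.1% higher. The rise at I-III was 2.39 for Izumo1 and 3.16 for Acrv1 in dnRARa tubules, 1.68 and 2.02 in Venus tubules, and 1.82 and 1.95 in untreated tubules. Without replicate 2 of untreated IX-XII the last 2 were 0.84 and 0.98, and both still passed (adjusted p = 0.0189 and 0.00198), as did Spaca1 (1.59, adjusted p = 0.00169) and Spaca3 (0.99, adjusted p = 0.00515).

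**Figure D3:**
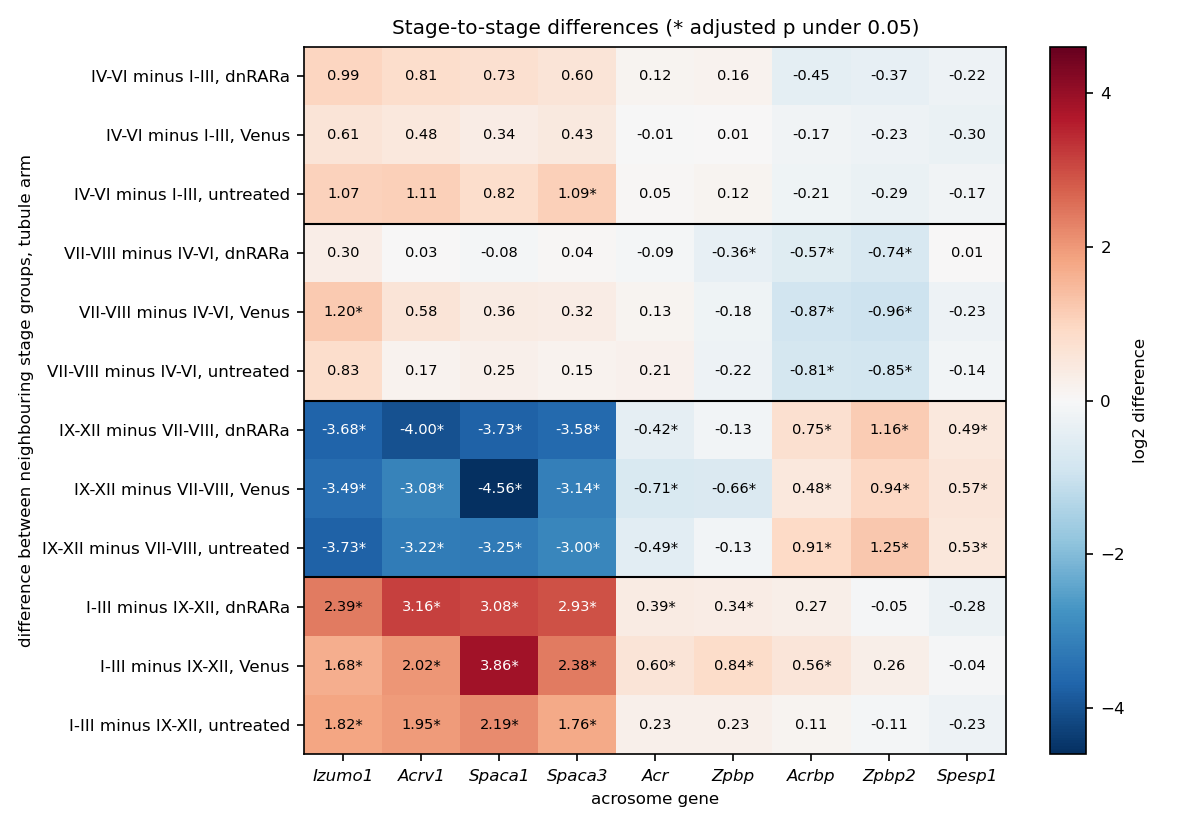
Log2 differences between neighbouring stage groups (rows, later minus earlier, with I-III minus IX-XII closing the cycle, by arm) for the 9 acrosome genes (columns), with an asterisk where the adjusted p was under 0.05. The 4 steeply falling genes show their large values in the IX-XII minus VII-VIII rows, -2.996 to -4.56, and in the I-III minus IX-XII rows, while Acrbp and Zpbp2 carry asterisks in the VII-VIII minus IV-VI rows of every arm.

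The 9 genes did not share 1 course across the tubules. Over the 12 group means the 36 pairs of genes correlated at r from -0.744 (Izumo1 with Zpbp2) to 0.994, with a median of 0.431. Genes with the course nearest to the mean of the 9 were sought among 10639 other genes with a symbol that were well above background on all 24 tubule arrays. The 8 nearest were Pin4, 1700123K08Rik, Kcnu1, Pdzk1ip1, Ribc1, Kcne3, Prkg1 and Dcst1, at r from 0.998 to 0.989 over the 12 group means. The mean was taken without scaling the genes, so Izumo1, Acrv1, Spaca1 and Spaca3, with the widest ranges, weigh most in it. All 8 were lowest at IX-XII in each arm, unlike Acrbp, Zpbp2 and Spesp1. Kcnu1 encodes the sperm potassium channel SLO3 and Dcst1 a sperm membrane protein that mice need for fertilization. The single nearest gene to each was Catsper1, a subunit of the sperm calcium channel, for Acrv1 (r = 0.994), Cabyr, a calcium-binding protein of the sperm tail, for Izumo1 (0.992), Stambpl1 for Spaca1 (0.997), Impdh2 for Spaca3 (0.997), 1700001J03Rik for Acr (0.972), Oxsm for Zpbp (0.972), Zdhhc6 for Acrbp (0.991), Cep72 for Zpbp2 (0.995) and Mrto4 for Spesp1 (0.985). These are likenesses of course over groups that share slides, with no test.

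Other genes of the acrosome were described by lists that do not hold the 9. The counts of each list stand beside 37% of all genes that passed in dnRARa, 34.6% in Venus and 46.6% in untreated tubules. Of 23 further genes for acrosome contents 21 were measured, and in dnRARa tubules 13 were lower and 4 higher at IX-XII than at VII-VIII, with a median difference of -0.61, beside 0.09 over all genes. In Venus tubules 12 were lower and 3 higher (median -0.87, beside 0.064), and in untreated tubules 13 were lower and 3 higher (median -0.63, beside 0.006). Eqtn, which encodes the acrosomal membrane protein equatorin, fell in all 3 arms, with differences of -4.15 in dnRARa, -3.04 in Venus and -3.53 in untreated tubules. Hyal5, a sperm hyaluronidase, fell too, with -4.46 in dnRARa, -3.72 in Venus and -3.63 in untreated tubules. Spaca4, a sperm surface protein, had -3.53 in dnRARa, -3.08 in Venus and -3.04 in untreated tubules. The sperm serine protease gene Prss21 rose in each arm, by 1.63 in dnRARa, 1.303 in Venus and 1.696 in untreated tubules. All of these passed the test. In this list and the next 3, up to 4 genes were named by the smallest adjusted p in untreated tubules. That they passed in untreated tubules was thus set by the choice, and leaving out an array there reuses the others. Without replicate 2 of untreated IX-XII the list had 10 lower and 2 higher in untreated tubules (median -0.47), Eqtn differed by -2.81, Hyal5 by -2.68, Spaca4 by -2.56 and Prss21 by 1.78, and each still passed.

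Of 19 listed genes for sperm-egg binding and fusion 11 were measured. At IX-XII 6 were higher and 4 lower in dnRARa tubules (median 0.45), 6 higher and 3 lower in Venus tubules (median 0.46) and 5 higher and 3 lower in untreated tubules (median 0.27). Dcst1 fell, with differences of -3.70 in dnRARa, -3.48 in Venus and -3.26 in untreated tubules. In contrast, Adam1b and Adam18 of the ADAM family of sperm surface proteins rose. Adam1b rose by 1.65 in dnRARa, 1.596 in Venus and 2.02 in untreated tubules, and Adam18 by 0.80, 0.81 and 0.76 in these arms. Izumo4, a secreted relative of Izumo1, rose by 1.16 in dnRARa, 0.85 in Venus and 0.97 in untreated tubules. Without replicate 2 of untreated IX-XII the list had 7 higher and 3 lower in untreated tubules (median 0.52), against a median of 0.026 without replicate 1. Dcst1 differed by -1.9997, Adam1b by 1.92, Adam18 by 0.75 and Izumo4 by 0.89 without replicate 2, and each still passed.

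Of 24 listed genes for acrosome biogenesis 19 were measured, with 5 higher and 6 lower in dnRARa tubules (median -0.14), 4 higher and 5 lower in Venus tubules (median 0.036) and 5 of each in untreated tubules (median -0.058). The 4 with the smallest adjusted p in untreated tubules were lower in every arm. Sun5, known for joining the sperm tail to the head, differed by -3.40 in dnRARa, -3.37 in Venus and -2.9004 in untreated tubules. Spata46, a protein of the sperm nuclear envelope, differed by -2.80 in dnRARa, -1.89 in Venus and -1.83 in untreated tubules. Actl7a and Actl7b encode actin-like proteins of the sperm head. Actl7b differed by -1.82 in dnRARa, -1.804 in Venus and -1.85 in untreated tubules, and Actl7a by -0.92, -0.63 and -0.795. With replicate 2 of untreated IX-XII left out the list still had 5 of each in untreated tubules, and Sun5 differed by -2.14, Spata46 by -1.54, Actl7b by -1.31 and Actl7a by -0.67, all past the test. Of 10 regulators of spermatid genes 4 were higher and 2 lower in dnRARa tubules, 2 and 2 in Venus tubules and 5 and 3 in untreated tubules. Crem, a cAMP-responsive transcription factor that mice need for spermatid genes, fell, with -0.49 in dnRARa, -0.69 in Venus and -0.52 in untreated tubules (adjusted p = 0.0142, 0.00178 and 0.00824). The fall of Crem did not pass in untreated tubules without replicate 2 of IX-XII (-0.42, adjusted p = 0.0613), and the regulators had 4 higher and 0 lower. Tbpl1, a TBP-like transcription factor, rose by 1.26 in dnRARa, 1.07 in Venus and 1.35 in untreated tubules (1.33 without that array). Mybl1, a MYB factor of meiotic cells, and Papolb, a testis poly(A) polymerase, rose in dnRARa and untreated tubules (in untreated tubules also without that array), and their differences in Venus tubules, 0.50 and 0.44, did not pass.

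**Figure D4:**
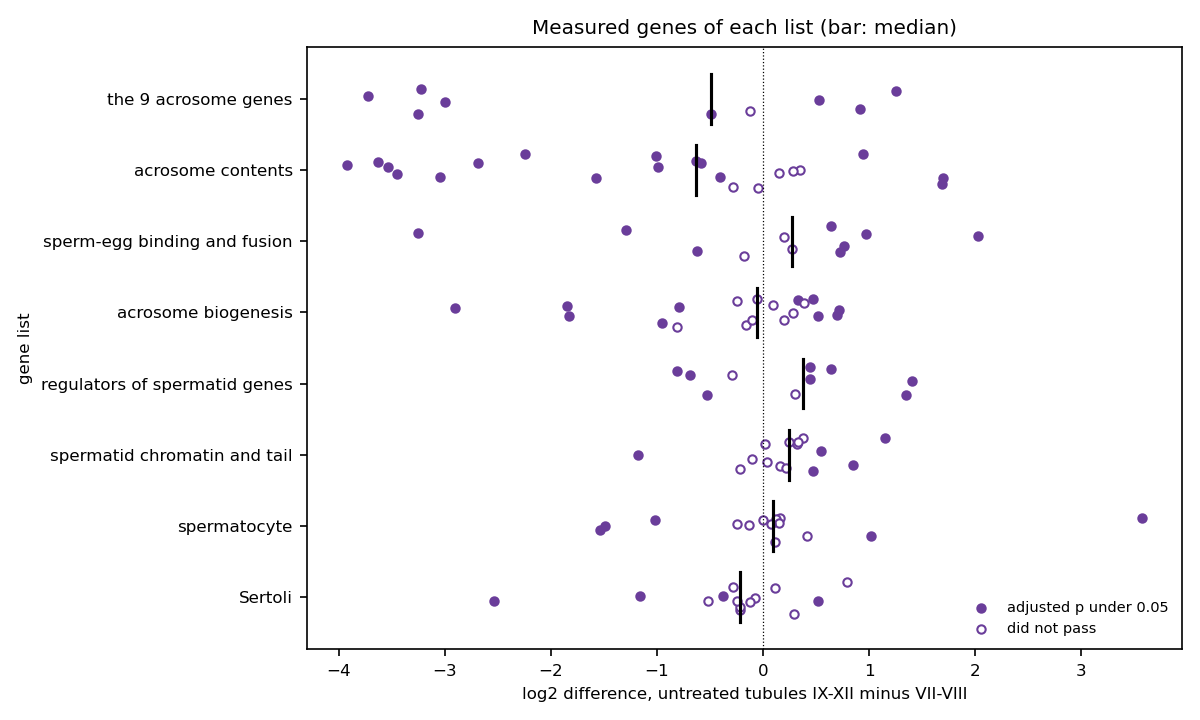
Log2 difference between untreated tubules of stages IX-XII and VII-VIII (x axis) for each measured gene of 8 lists (rows), filled where the adjusted p was under 0.05 and open where it was not, with a bar at the median of each list. The acrosome contents list lies mostly to the left with a median of -0.63, while spermatid chromatin and tail, spermatocyte and Sertoli markers spread around 0.

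Markers of the cells in these tubules were also read at IX-XII against VII-VIII. Beside their counts, 37% of all genes tested passed in dnRARa tubules (19.9% higher, 17.1% lower). The share was 34.6% in Venus tubules (18% higher, 16.6% lower) and 46.6% in untreated tubules (23.6% higher, 23% lower). The 15 markers of spermatid chromatin and tail had 3 higher and 1 lower in dnRARa tubules, 3 and 1 in Venus tubules and 4 and 1 in untreated tubules, and their summed signal (the array's 75th percentile being 1) ranged from 1768 to 2358 in untreated IX-XII tubules, against 1618 to 1707 in untreated VII-VIII tubules. In Venus tubules the sums were 1840 to 2023 at IX-XII and 1684 on both arrays at VII-VIII. In dnRARa tubules they overlapped, at 1869 to 2538 and 1848 to 2426. Of 14 spermatocyte markers 2 were higher and 3 lower in untreated tubules, with summed signals of 329 to 388 at IX-XII and 364 to 368 at VII-VIII. Of 14 Sertoli markers 1 was higher and 3 lower, with summed signals of 45.4 to 48.8 at IX-XII and 62.6 to 64.8 at VII-VIII in untreated tubules. The Sertoli sums were 69.4 to 71.3 and 84.0 to 90.0 in Venus tubules, and overlapped in dnRARa tubules, at 76.6 to 89.1 and 86.6 to 96.8. Of 8 spermatogonia markers 1 was higher and 2 lower in dnRARa tubules, 0 and 1 in Venus tubules and 1 and 3 in untreated tubules. Their summed signals were 24.5 to 29.3 at IX-XII and 44.98 to 47.02 at VII-VIII in dnRARa tubules, 34.05 to 34.8 and 39.96 to 50.5 in Venus tubules, and 33.1 to 45.8 and 73.4 to 78.6 in untreated tubules. This sum does not stand for spermatogonia alone. It was 106.8 to 108.3 in cultured Sertoli cells with RA, against 29.4 to 31.0 with vehicle. In sorted Nanos3KO Sertoli cells it was 23.9 to 43.9, against 20.5 to 25.4 in sorted WT cells. Of 5 peritubular myoid markers 2 were higher in dnRARa, 2 in Venus and 1 in untreated tubules, and none was lower. Their sums were 24.5 to 27.7 at IX-XII and 14.4 to 18.5 at VII-VIII in dnRARa tubules, 29.5 to 33.1 and 18.7 to 21.2 in Venus tubules, and 21.1 to 26.1 and 13.2 to 14.2 in untreated tubules. The part of these shifts in the results of the acrosome genes was not tested.

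dnRARa tubules were set against Venus tubules to see whether the acrosome genes differed between the virus arms. These arms lay on different slides, so virus and slide cannot be told apart in the comparison, averaged over stages or by stage. Averaged over the 4 stage groups none of the 9 passed by limma, beside 10.6% of all genes (7.19% higher, 3.42% lower; higher calls made up 67.8% of these, and 52.8% with median scaling), and 1 of them, Zpbp, and 5947 of 23951 genes were under 0.05 without adjustment. The differences ran from -0.18 for Acrv1 to 0.24 for Spaca1. Their 95% intervals were -0.59 to 0.24 for Acrv1, -0.09 to 0.56 for Spaca1 and -0.43 to 0.46 for Izumo1. A p above the threshold does not show that the arms are alike. A second probe of Spaca1 did pass, 0.58 higher in dnRARa tubules (adjusted p = 0.0365).

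By stage, none of the 9 passed at I-III (0.00902% of all genes), IV-VI (2.1%, 0.931% higher) or VII-VIII (1.2%), with 0, 1 and 0 of the 9 under 0.05 without adjustment, beside 1333 of 22171, 3549 of 22235 and 2504 of 22947 genes. At IX-XII 1 passed, as higher, beside 3.73% of all genes, 2.52% higher. This was Zpbp, at 2.75 and 2.73 in dnRARa tubules, against 2.24 and 2.29 in Venus tubules. Both dnRARa arrays lay above both Venus arrays, as they did for 6 of the 9 genes and for 36.3% of all genes tested. For the other 3, Acrv1, Spaca3 and Izumo1, both dnRARa arrays lay below both Venus arrays, beside 26.9% of all genes tested. The difference of Zpbp was 0.47 (SE 0.12, adjusted p = 0.0383), and it did not pass when any of the 4 arrays was left out. Acrv1 at IX-XII was at 0.53 and 0.61 in dnRARa tubules, against 1.53 and 1.72 in Venus tubules, and did not pass (-1.06, SE 0.39, adjusted p = 0.179). That SE is pooled over all tubule groups, and the widest Acrv1 pair, untreated IX-XII (SD 1.37), is in neither group compared. The SD was 0.06 in dnRARa and 0.13 in Venus tubules IX-XII.

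Venus tubules were set against untreated tubules as a check of what injection and handling brought with them. Averaged over stages 6 genes were higher in Venus tubules, 1 was lower and 2 did not pass, beside 65.6% of all genes, 35.9% higher and 29.7% lower. Of those calls over all genes 54.7% were higher, and 28.8% with normexp background correction, which moved the median of all genes to -0.339, against 0.063; the 6 genes stayed higher and passed under each of the 4 scalings run. Acrbp was higher by 0.88 (SE 0.08, adjusted p = 3e-07), Spesp1 by 0.77 (SE 0.06, adjusted p = 4.69e-08), Acrv1 by 0.77 (SE 0.19, adjusted p = 0.0031), Spaca3 by 0.54, Acr by 0.28 and Zpbp by 0.22. Spaca1 was lower by 0.43 (difference -0.43, SE 0.15, adjusted p = 0.0233), and Izumo1 (0.49, adjusted p = 0.0516) and Zpbp2 (-0.01, adjusted p = 0.904) did not pass. Spaca1 did not pass with normexp (-0.28, adjusted p = 0.0914), nor without replicate 1 of untreated VII-VIII (-0.38, adjusted p = 0.0565), replicate 2 of Venus IV-VI (-0.396, adjusted p = 0.0524) or replicate 1 of Venus IX-XII (-0.39, adjusted p = 0.0554). Izumo1 passed when either untreated IX-XII array was left out, at 0.24 without replicate 2 (adjusted p = 0.0406) and 0.74 without replicate 1 (adjusted p = 1.92e-05). The 2 arms were scanned on different days, so virus and scan day cannot be told apart here. Of 14 Sertoli markers 11 were higher in Venus tubules, as were 5 of 5 peritubular myoid and 4 of 5 macrophage markers; their part in the differences was not tested.

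The acrosome genes were next read in Sertoli cells, which make no acrosome. Sorted WT Sertoli cells carried all 9 at 4.44-fold to 11.03-fold lower signal than whole testes, and all 9 were still well above background. Izumo1 was at -1.25 and -1.61 in sorted cells, against 1.63 and 1.66 in whole testes (difference -3.07, SE 0.24, adjusted p = 2.63e-05). Zpbp2 was at 4.52 and 4.03 in sorted cells, against 7.02 and 7.05 in whole testes (difference -2.76, SE 0.38, adjusted p = 0.000409). The differences of the 9 ran from -3.46 for Spesp1 to -2.15 for Zpbp, beside 78.3% of all genes that passed, 39.8% lower. The 15 spermatid chromatin and tail markers were all lower too, with summed signals of 701 to 1053 in sorted cells, against 3711 to 4001 in whole testes; the part of spermatid RNA in the sorted samples was not tested. Markers of other somatic cells moved as well. The 7 Leydig markers were all higher in sorted cells, with sums of 615 to 695, against 34.85 to 34.91 in whole testes, and 4 of 5 endothelial markers were higher, with sums of 16.4 to 24.1, against 1.41 to 1.46. The 14 Sertoli markers summed to 47.1 on replicate 1 and 261 on replicate 2 of the sorted cells, against 81.1 to 82.2 in whole testes, so by these markers the first sorted array lay below whole testes. All 9 acrosome genes passed as lower with either sorted array left out, and the part of the other cells was not tested.

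Sorted Nanos3KO Sertoli cells come from testes that lack Nanos3, an RNA-binding protein that mouse germ cells need to survive. All 9 genes were lower in them than in sorted WT cells, beside 47.9% of all genes that passed, 20.9% lower. Of those calls over all genes 56.3% were higher, and 77.9% with median scaling; the 9 genes were lower under each of the 4 scalings run, and Spesp1 did not pass with normexp (-1.12, adjusted p = 0.0585). Neither Nanos3KO array was well above background for Izumo1, Acrv1, Spaca3 or Spesp1, so their folds were taken against the dimmest probe that each of those arrays still detected. That level is the lowest over all detected probes and not the limit of each probe, so these folds are approximate bounds. By them Spaca3 was 200.3-fold lower, Acrv1 95.1-fold, Spesp1 19.2-fold and Izumo1 17.1-fold. The limma fit used the readings under background themselves. It gave adjusted p = 4.52e-06 for Spaca3, 4.9e-07 for Acrv1, 3.89e-06 for Spesp1 and 2.07e-06 for Izumo1.

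The remaining genes kept a signal in Nanos3KO cells. Zpbp2 was at -2.41 and -3.50 in Nanos3KO cells, against 4.52 and 4.03 in WT cells (difference -7.23, SE 0.38). Spaca1 was at -2.66 and -2.30, against 2.42 and 2.11 (difference -4.74, SE 0.17), Acr at -4.15 and -3.76, against 0.48 and -0.03 (difference -4.18), and Acrbp at -2.51 and -1.78, against 1.92 and 1.61 (difference -3.91). Zpbp was well above background on 1 of the 2 Nanos3KO arrays, at -4.48 there. Of the spermatid markers all 15 were lower, with summed signals of 2.04 to 2.69 in Nanos3KO cells, against 701 to 1053 in WT cells. All 5 macrophage markers were higher, with sums of 19.5 to 106 in Nanos3KO cells, against 3.21 to 7.03 in WT cells, and 2 of 7 Leydig markers were lower, with sums of 178 to 475, against 615 to 695. The Sertoli markers summed to 281 to 284 in Nanos3KO cells, against 47.1 and 261 in WT cells. Without WT replicate 1 all 9 genes still passed as lower; the part of these cells was not tested. The 2 groups lay on different slides, so slide and genotype cannot be told apart.

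Cultured Sertoli cells with vehicle were also lower than sorted WT cells for all 9 genes, beside 73.7% of all genes that passed, 41.6% lower. Of those calls over all genes 43.5% were higher, and 66.9% with median scaling, under which the 9 genes still passed as lower. Izumo1, Acrv1 and Spaca3 were not well above background on either cultured array and were 34.1-fold, 189-fold and 399-fold lower by the same approximate bounds. The others differed by -2.997 (Spesp1) to -4.98 (Zpbp2) on the log2 scale. Zpbp2 was still at -0.72 and -0.69 in cultured cells, against 4.52 and 4.03 in sorted cells. Without the first sorted WT array all 9 still passed as lower. Cultured and sorted cells differ in slide and scan day as well. RA against vehicle could be tested for 6 of the 9 genes and none passed by limma, beside 4.04% of all genes, with none of the 6 and 3098 of 19908 genes under 0.05 without adjustment. That share of all genes depended on the fit, from 1.13% without 1 of the arrays to 27.1% in a fit to these 4 arrays alone. The differences of those 6 ran from 0.05 for Spaca1 (95% interval -0.34 to 0.45) to 0.50 for Spesp1 (95% interval -0.15 to 1.16).

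**Figure D5:**
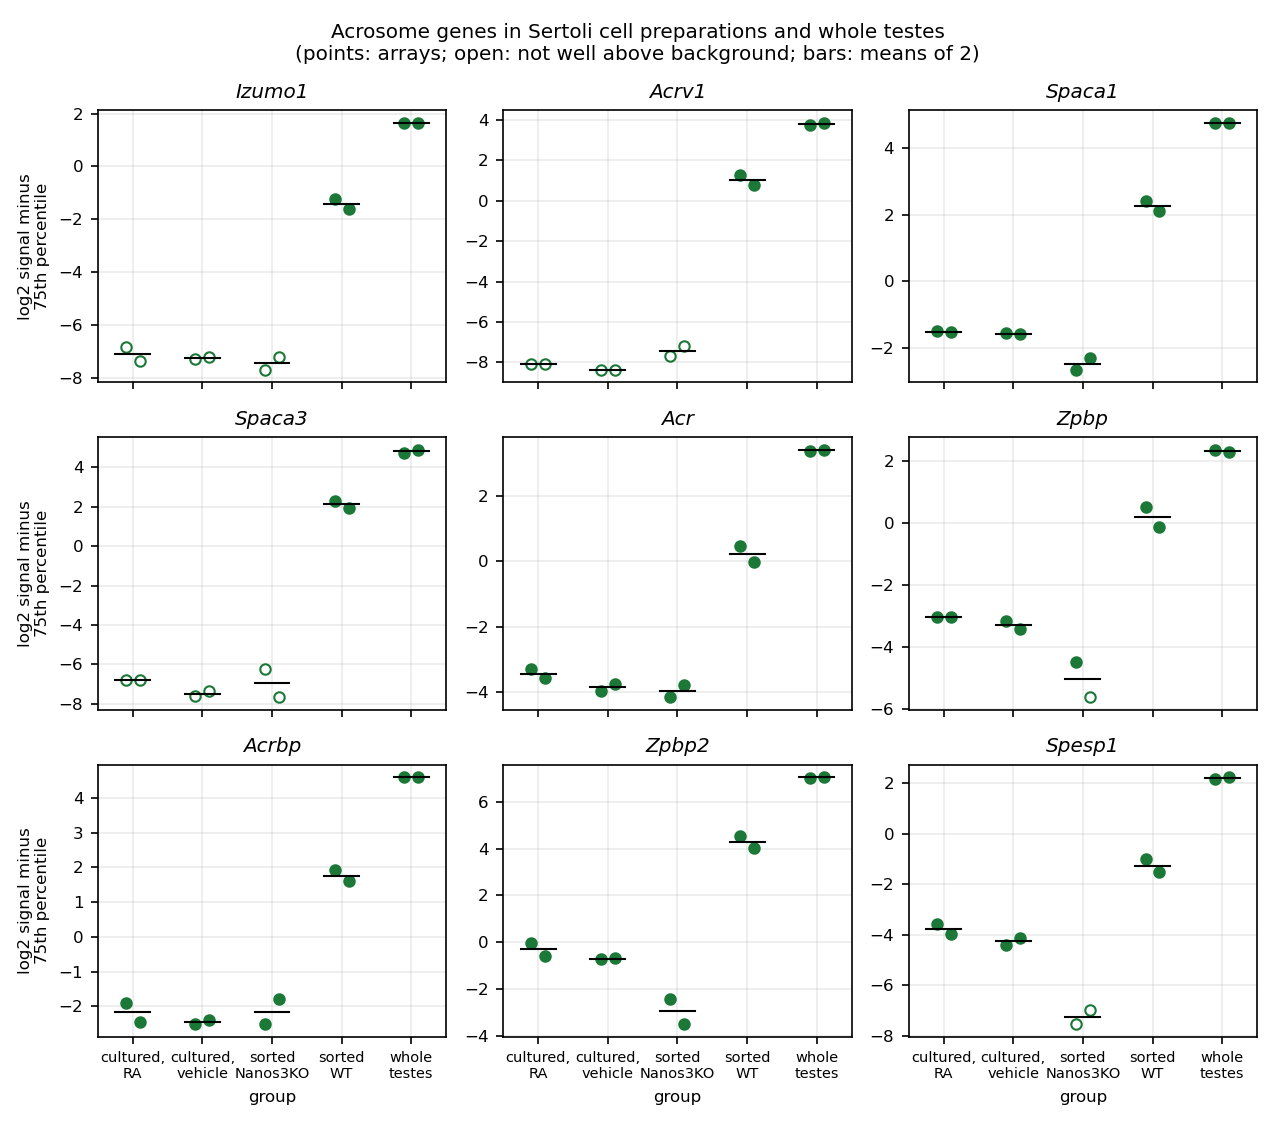
Level of each acrosome gene (log2 signal minus the array's 75th percentile, y axis, scaled per gene) in cultured Sertoli cells with RA or vehicle, sorted Nanos3KO Sertoli cells, sorted WT Sertoli cells and whole testes (x axis), with 1 point per array, open where the probe was not well above background, and bars at the means of 2 arrays. Whole testes are highest and sorted WT cells next for all 9 genes, and the open points belong to Izumo1, Acrv1, Spaca3, Spesp1 and Zpbp.

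Across all 17 groups the order of the group means differed between genes. Venus tubules of VII-VIII ranked first for Izumo1 (2.68), Acrv1 (4.71), Spaca3 (5.34) and Acr (3.67), and untreated tubules of VII-VIII for Spaca1 (5.62). Untreated tubules of IX-XII ranked first for Zpbp2 (7.15), dnRARa tubules of IX-XII for Spesp1 (3.103), dnRARa tubules of IV-VI for Zpbp (3.23) and Venus tubules of I-III for Acrbp (5.70). The second probe of Acrbp was instead highest in whole testes, at 3.25 and 3.23, against 3.08 and 3.07 in Venus tubules of I-III. Nanos3KO and both kinds of cultured Sertoli cells took the 3 last places for every gene, and for Izumo1, Acrv1 and Spaca3 these 3 groups have no order, as none of their arrays was well above background. Many neighbours in these orders could not be separated. The first-ranked group overlapped the next one for Acr, Acrv1, Spaca1, Spaca3, Zpbp and Zpbp2. Leaving out pairs below background on both sides, 14 neighbouring pairs of groups remain for Izumo1, Acrv1 and Spaca3 and 16 for the other genes. The 2 arrays of one group lay wholly above the 2 of the next in 3 pairs for Spaca3, 7 for Acr, Acrv1, Acrbp and Zpbp2, 8 for Spaca1 and Zpbp, 9 for Izumo1 and 11 for Spesp1.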

How the data were processed

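The 34 arrays were scanned and read with Agilent Feature Extraction (version 9.5 per the submitters' processing notes, 9.5.3.1 per the file headers). Its intensity values, per the file headers, are spot signals with background subtracted and spatial trends removed within each array, deposited without scaling between arrays. The deposited series table held the same values. Here log2 of the processed signal was taken minus each array's 75th percentile of it, after control spots and 32 to 274 outlier spots per array were left out. Probes were named through their accession in RefSeq tables; 23553 of 41174 matched a symbol, and the brightest probe stood for a gene. The 24 tubule arrays and the 10 others were each fitted as 1 linear model with limma 3.58.1 in R 4.3.3 (12 and 5 residual degrees of freedom). Tests were two-sided, with Benjamini-Hochberg adjustment over the genes detected in duplicate in 1 or more of the groups compared, and a threshold of 0.05. The fit was tested on simulated data.

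The genes, the lists and the tests were chosen with earlier results of these data known. By rule the text names the 9 genes, up to 4 genes of each of 4 lists with the smallest adjusted p in untreated tubules IX-XII against VII-VIII, and the genes of most similar course. Alternatives changed the scaling, the background correction (normexp, offset 50), the detection filter, the probe, the arrays in the fit, the variance model, batches as blocks, the size threshold and single arrays. The files give slides and scan days, used as batches.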

Additional observations from a re-analysis of the deposited data

How the results depend on the processing

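No difference that passed changed sign under any alternative run, and 112 values of single genes that did not pass changed sign without passing. With a fit to the compared arrays alone the calls among the 9 genes numbered 5 in dnRARa tubules (8 in the main fit) and 4 in untreated tubules (8) for IX-XII against VII-VIII, 0 in dnRARa tubules for VII-VIII against IV-VI, 0 in untreated tubules for IV-VI against I-III and for I-III against IX-XII, and 0 for dnRARa against Venus at IX-XII; those fits hold fewer arrays. Requiring a 2-fold difference left 5 in dnRARa, 4 in Venus and 5 in untreated tubules for IX-XII against VII-VIII, 0, 1 and 0 for VII-VIII against IV-VI, 4 in Venus tubules for I-III against IX-XII, and 0 for dnRARa against Venus at IX-XII and for Venus against untreated tubules. The single call in untreated tubules for IV-VI against I-III became 3 with quantile scaling, 0 with median scaling, 2 with normexp, 0 with no detection filter, 2 with 1 model for all arrays and 4 with an intensity trend; the trend gave 1 in dnRARa tubules for these stages. Zpbp in dnRARa against Venus at IX-XII gave 0 calls with median scaling, normexp, no detection filter and 1 model for all arrays. Spaca1's other probe gave 1 call for dnRARa against Venus over stages, and a filter on every array left 4 genes for Nanos3KO against WT cells, since it tests fewer genes. Where not explained by the construction of the alternative, the cause was not tested.

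Leaving out 1 array gave 7 to 8 calls in dnRARa, 8 to 8 in Venus and 8 to 8 in untreated tubules for IX-XII against VII-VIII, 1 to 2 in dnRARa tubules for VII-VIII against IV-VI, 0 to 1 in dnRARa and 0 to 0 in untreated tubules for IV-VI against I-III, 0 to 0 for dnRARa against Venus at IX-XII, and 0 to 2 for the test of Venus against untreated changes. For I-III against IX-XII it gave 4 to 5 in dnRARa, 6 to 7 in Venus and 4 to 4 in untreated tubules. The values of the gene lists without an untreated IX-XII array were chosen after seeing the data. The share of all-gene calls that were higher was 54.4% for untreated IV-VI against I-III, but 34.2% with median scaling and 71.6% with normexp. It was 42.8% for untreated I-III against IX-XII and 31.1% with normexp, 44.2% for dnRARa against Venus at IV-VI and 32.5% with median scaling, and 45.5% at VII-VIII and 30.4% with normexp. Median scaling moved the median of all genes for untreated IX-XII against VII-VIII to 0.122 and normexp to -0.155, against 0.006. Same-numbered tubule arrays deviated together within an arm (r of 0.271 to 0.529 in dnRARa, 0.072 to 0.406 in Venus and 0.254 to 0.621 in untreated tubules), and at -0.083 to 0.222 between Venus and dnRARa tubules. With the replicate number as a block, untreated IV-VI against I-III gave 2 calls and Izumo1 passed for Venus against untreated tubules (adjusted p = 0.0474). Within each virus arm same-numbered arrays share a slide and a scan day. For untreated tubules the labels do not say what the numbers share, so the block there is a hint from the data. Blocks for slide or scan day could not be fitted where they coincide with the groups compared. Where signals in Sertoli cells were under background, the folds are approximate bounds.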
